A study of Mus musculus with 24 samples.

Results

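The 10 regulators described here, Tfap2a, Tfap2b, Tfap2c, Dlx3, Dlx5, Msx1, Msx2, Sox10, Gata3 and Snai2, were chosen by name as transcription factors of the surface ectoderm and the neural crest. Each matched 1 of the 49705 gene entries of the expression table, and all 10 were among the 21005 entries kept for testing because 3 or more libraries held 10 normalized counts or more. The question put to them was whether RNA of non-neural ectoderm and neural crest was present in the GFP-negative cells of optic vesicle (OV) organoids. The organoids were grown from mouse Rax-GFP mESCs, an EB5 embryonic stem cell line with GFP knocked in at Rax, the homeobox regulator of the eye field, so that GFP reads out Rax. All 8 groups came from that reporter line with no further treatment: live cells sorted on days 0, 1, 2 and 3, and GFP-negative and GFP-positive live cells sorted on days 4 and 5, with 3 libraries in each group and 24 in all. The cells had been plated at 4500 per well on day 0, with Matrigel at 2% from day 1, and each library was made from 24 pooled organoids. The sample labels name a medium with 1.5% knockout serum replacement, and the study's methods a chemically defined medium without growth factors for the first organoids, so the medium of these cultures cannot be settled here. The study calls the 3 libraries of a group biological triplicates.

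Surface ectoderm and neural crest arise at the border of the neural plate, where BMP and Wnt signals act on ectoderm that has not become neural. AP-2 factors (Tfap2a, Tfap2b, Tfap2c) and the homeodomain factors Dlx3, Dlx5, Msx1 and Msx2 mark this border, Gata3 is expressed in non-neural ectoderm, and Snai2 and Sox10 act later, in crest cells that leave the epithelium or have begun to migrate. None of the 10 is private to these tissues. Msx1 and Msx2 are also expressed in the roof of the neural tube and in mesoderm, and Tfap2c is also expressed in pluripotent cells, germ cells and trophoblast.

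The promoters of 5 of the 10 regulators, in 6 windows, were in the RefSeq promoter table on build GRCm38.p6 (Tfap2a with a pair of starts, Tfap2b, Msx1, Msx2 and Gata3). Tfap2c, Dlx3, Dlx5, Sox10 and Snai2 were not matched. The 250 bases before the start are printed below for the windows that hold the 6-letter core read by Dlx and Msx homeodomains (TAATTG or TAATTA, on either strand). They belong to Tfap2a, Tfap2b and Msx2 and were chosen with the rise of these genes in GFP-negative cells known. A link between the core and that rise was not tested. Msx1 and Sox10 rose there as well. Sox10 had no window, and neither the Msx1 window nor that of the second Tfap2a start held the core. Capitals mark the core, sequences run 5′ to 3′ on the strand of the gene, and each start lies inside the span that the expression table gives for the gene.

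Tfap2a, chr13:40734921-40735170, minus strand: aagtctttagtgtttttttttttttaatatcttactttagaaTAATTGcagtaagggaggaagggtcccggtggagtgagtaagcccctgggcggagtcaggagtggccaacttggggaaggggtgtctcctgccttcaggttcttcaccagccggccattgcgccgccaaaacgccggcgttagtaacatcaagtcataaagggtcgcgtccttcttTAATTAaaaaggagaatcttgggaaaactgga
Tfap2b, chr1:19211804-19212053, plus strand: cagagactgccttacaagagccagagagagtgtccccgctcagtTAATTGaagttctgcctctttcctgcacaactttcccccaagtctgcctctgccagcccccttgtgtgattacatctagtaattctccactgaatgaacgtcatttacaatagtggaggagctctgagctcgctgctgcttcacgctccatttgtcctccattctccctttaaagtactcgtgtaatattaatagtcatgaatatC
Msx2, chr13:53472781-53473030, minus strand: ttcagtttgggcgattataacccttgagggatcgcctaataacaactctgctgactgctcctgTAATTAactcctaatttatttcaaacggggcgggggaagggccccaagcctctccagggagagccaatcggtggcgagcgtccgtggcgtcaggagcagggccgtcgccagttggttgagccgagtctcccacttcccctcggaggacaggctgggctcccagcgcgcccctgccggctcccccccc

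The upstream Tfap2a window held TAATTG with its first base 208 bases before the start and TAATTA 32 bases before it. The Tfap2b window held TAATTG at 206 bases before the start, and a reverse-strand match began on the last base before the start, so that only its first letter is seen. Msx2 held TAATTA at 187 bases before the start. Counted over 250 bases before to 50 after the start, 12.4% of all 32851 promoters held such a core. The AP-2 sequence GCCNNNGGC was found 3 times in the Gata3 window, where 16.6% of all promoters held it at least once. The Snai core CAGGTG was found once in Msx1, against 20.2% of all promoters, and neither the GATA core AGATAA (11.2%) nor the SOX core ACAAAG (18.7%) was found in any of the 6 windows. No base was part of matches to different motifs. These matches describe letters and were not tested as binding sites.

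The sort and the libraries were checked once. Rax lay between 946 and 1020 normalized counts in the day 4 GFP-negative libraries and between 9100 and 9970 in the GFP-positive ones, and between 412 and 517 against 8080 to 8920 on day 5. The study set its gates so that some low-GFP cells fell into the GFP-negative samples, so that gate is not free of Rax. Library totals were 39849111 to 51587535 normalized counts. Within groups the libraries correlated closely, except that replicate 1 of day 0 stood apart from the other 2 (Spearman's rho over genes 0.953 and 0.954, against 0.988 between the other 2). A difference between groups was called where limma gave a Benjamini-Hochberg adjusted p under 0.001 over all 21005 genes and an absolute log2-fold-change above 1.5, on the log2(normalized count + 1) scale, with the SE taken from the same fit.

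**Figure D1:**
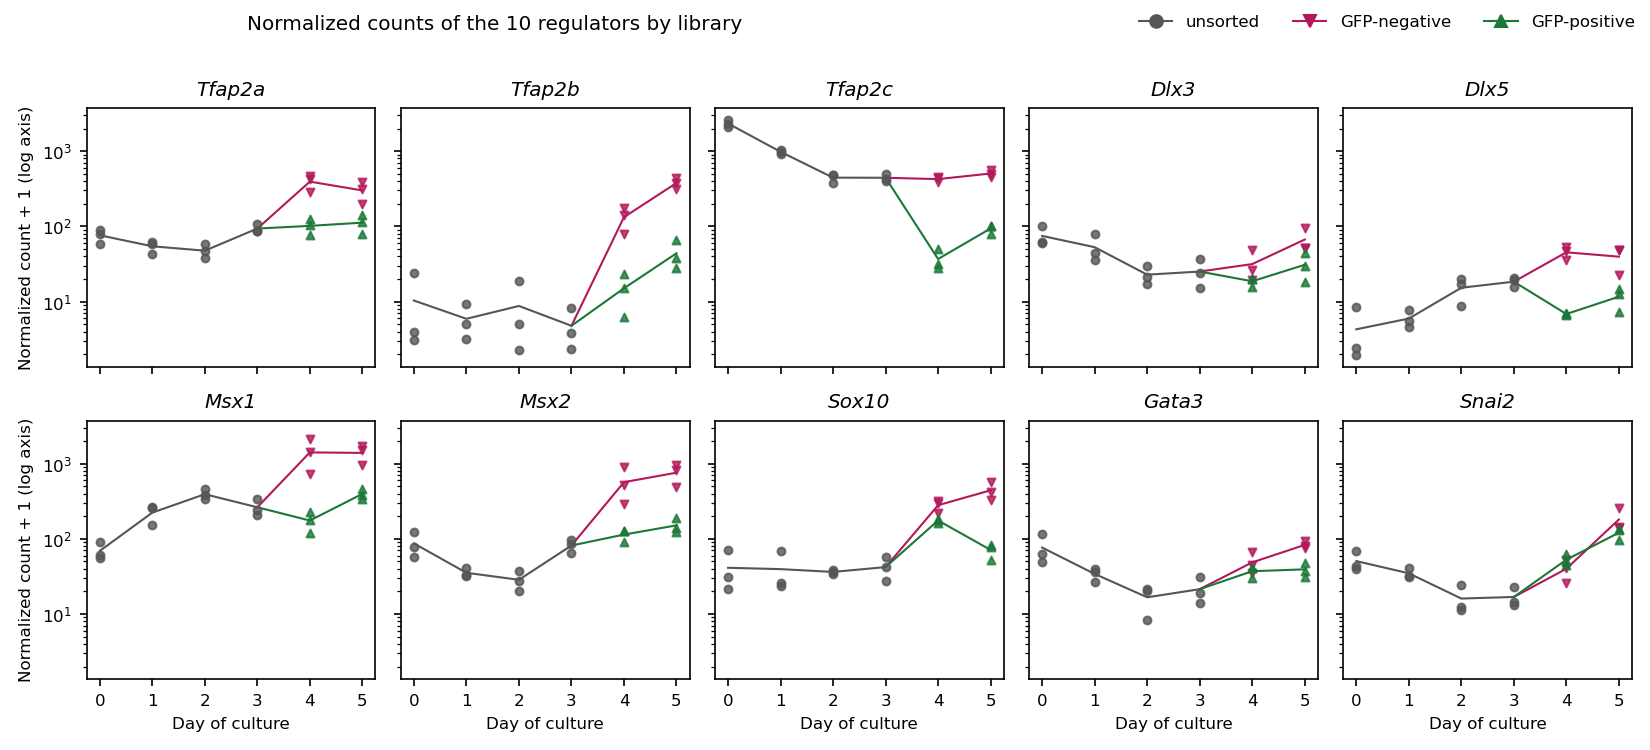
Normalized count plus 1 (log axis) of each of the 10 regulators in the 24 libraries against the day of culture. Points are libraries and lines join group means; after day 3 the lines part into the GFP-negative (triangles down) and GFP-positive (triangles up) gates, and Tfap2b, Msx1, Msx2 and Tfap2a climb from day 3 to day 4 in the GFP-negative gate while Tfap2c falls in the GFP-positive gate.

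On day 4, 5 of the 10 regulators were called higher in GFP-negative cells: Tfap2a, Tfap2c, Dlx5, Msx1 and Msx2. Of all genes tested, 3.63% were called higher in that comparison. The number of regulators called was 3 to 6 with each library left out in turn. It was 2 with only the compared groups fitted, where Tfap2a, Msx1 and Msx2 were not called. All 3 GFP-negative libraries lay above all 3 GFP-positive libraries for 7 regulators, against 20.5% of all genes. The median log2-fold-change over the 10 was 2.06, beside -0.01 over all genes tested. On day 5, 4 were called higher (Tfap2c, Msx1, Msx2 and Sox10), against 4.61% of all genes. None of the 10 was called lower in GFP-negative cells on either day by limma. Among all genes tested, lower calls were rare, with 69 beside 763 higher on day 4 and 84 beside 968 on day 5. The lack of a lower call among the 10 regulators thus says little. At an unadjusted p under 0.05, 6 were higher and none lower on day 4, against 16.0% and 9.67% of all genes, and 9 were higher and none lower on day 5, against 17.3% and 9.03%. The libraries of the gates did not overlap for any of the 10 on day 5, with GFP-negative higher each time, against 20.8% of all genes. The median log2-fold-change was then 1.76, beside 0.00 over all genes. In these bulk samples fewer cells of a type and less RNA per cell cannot be told apart.

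**Figure D2:**
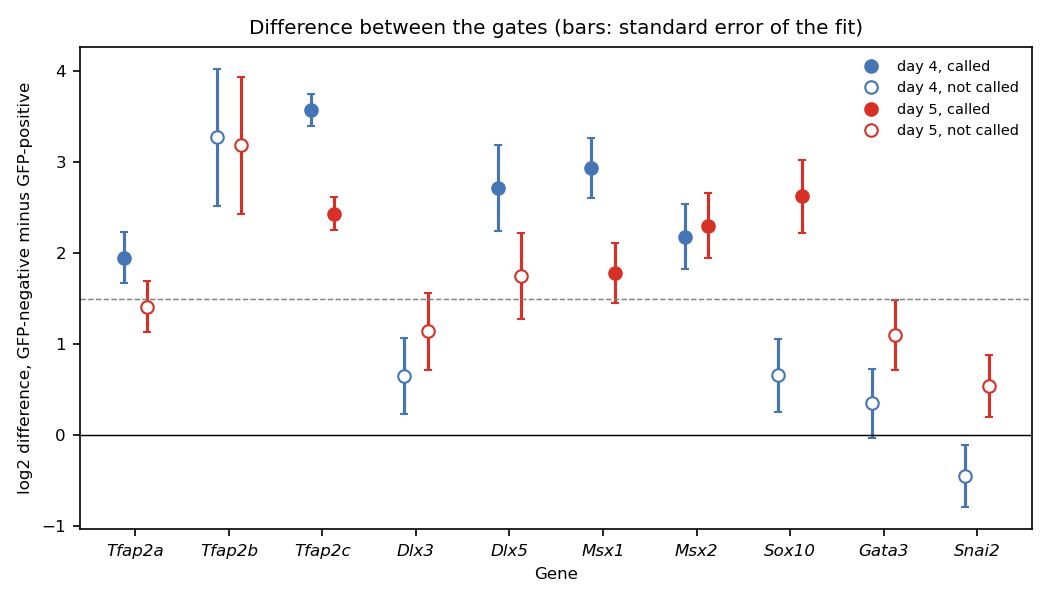
The log2 difference between the gates (GFP-negative minus GFP-positive, log2(normalized count + 1) scale) of each regulator on day 4 (blue) and day 5 (red), with the SE of the fit as bars, filled points for called differences and a dashed line at 1.5. Tfap2c has the narrowest bars, with 3.57 on day 4 and 2.43 on day 5, and Sox10 moves from 0.66 to 2.62.

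The 3 AP-2 genes reached their excess in GFP-negative cells by different courses. Tfap2a, the AP-2 factor of early surface ectoderm and crest, held 84.6, 106 and 87.0 normalized counts on day 3. After the sort on day 4, the GFP-negative libraries held 282, 429 and 467 and the GFP-positive ones 74.8, 124 and 103. Every GFP-negative library was thus above every day 3 and every GFP-positive library, and the GFP-positive values overlapped those of day 3. The gate difference was 1.95 on the log2 scale (SE 0.28, adjusted p = 2.88e-05, 3.91-fold in the means). On day 5 Tfap2a was at 309, 391 and 199 in GFP-negative cells and 114, 140 and 79.3 in GFP-positive cells. The difference of 1.41 passed the adjusted p (0.000945) and not the fold limit, and it passed both without GFP-negative replicate 3 (1.68) or without GFP-positive replicate 2 (1.59).

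Tfap2b, an AP-2 factor of crest and of its derivatives, held under 10 normalized counts in 10 of the 12 libraries up to day 3, with 23.0 in replicate 1 of day 0, 17.9 in replicate 1 of day 2 and 2.87, 1.34 and 7.10 on day 3. Its values were 79.1, 174 and 142 on day 4 and 382, 439 and 309 on day 5 in GFP-negative cells. In GFP-positive cells they were 5.28, 14.2 and 22.6 on day 4 and 36.8, 65.0 and 26.9 on day 5. The gates did not overlap on either day, and the highest GFP-positive library stood below the lowest GFP-negative library of its day. The rise from day 3 to day 4 GFP-negative cells was called (4.91, SE 0.75, adjusted p = 7.37e-05). The gate differences of 3.27 on day 4 and 3.18 on day 5 were among the largest of the 10 but were not called (SE 0.75, adjusted p = 0.00386 and 0.0044). With a pseudocount of 5 both were called.

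Tfap2c, an AP-2 factor shared by pluripotent cells, germ cells, trophoblast and surface ectoderm, had 2301, 2577 and 2122 normalized counts at day 0 and fell to 498, 399 and 429 by day 3 (-2.40, SE 0.18, adjusted p = 6.69e-10). It then stayed near that level in GFP-negative cells, at 440, 446 and 386 on day 4 and 496, 558 and 457 on day 5. GFP-positive cells held only 30.8, 49.4 and 27.3 on day 4 and 100, 101 and 77.6 on day 5. The change from day 3 to day 4 was -0.06 in GFP-negative cells (SE 0.18, adjusted p = 0.888) and -3.63 in GFP-positive cells (SE 0.18, adjusted p = 1.1e-12). Its day 4 excess of 11.8-fold thus came with GFP-positive values below those of the ungated day 3 cells, at a GFP-negative level that overlapped the day 3 libraries. Both gate differences were called (3.57 and 2.43, SE 0.18, adjusted p = 1.5e-11 and 2.58e-09). In GFP-positive cells Tfap2c was 2.59-fold higher on day 5 than on day 4, a log2 change of 1.39 (adjusted p = 1.44e-05) that stayed under the fold limit.

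Among the homeodomain genes, Msx1 and Msx2, targets of BMP signalling at the neural plate border, had the highest levels per kilobase of exon in each of the 4 sorted groups and were called between the gates on both days. Msx1 was at 339, 239 and 207 normalized counts on day 3. It rose to 717, 1413 and 2094 in day 4 GFP-negative cells (2.32, SE 0.33, adjusted p = 3.36e-05), while GFP-positive cells were at 117, 176 and 229. On day 5 the GFP-negative values were 1505, 1697 and 958 and the GFP-positive values 336, 461 and 387. The day 4 GFP-negative libraries were spread widely, and each was still above every GFP-positive library. The gate differences were 2.93 on day 4 (SE 0.33, adjusted p = 1.48e-06) and 1.78 on day 5 (SE 0.33, adjusted p = 0.000485). The day 5 call was lost when any of 5 of the 6 libraries compared was left out, with differences of 1.61 to 2.03 over all 6.

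Msx2 was at 84.0, 94.1 and 63.3 normalized counts on day 3. In GFP-negative cells it held 286, 518 and 893 on day 4 and 948, 832 and 490 on day 5, and in GFP-positive cells 88.5, 125 and 125 and then 138, 189 and 123. From day 3 to day 4 it rose in GFP-negative cells (2.67, SE 0.36, adjusted p = 1.43e-05), and the change in GFP-positive cells was 0.48 (SE 0.36, adjusted p = 0.316). The gates differed 5.01-fold on day 4 and 5.04-fold on day 5 (2.18 and 2.30, SE 0.36, adjusted p = 0.000124 and 6.01e-05). The day 4 call was lost without GFP-negative replicate 3 (1.78, adjusted p = 0.0014) and without GFP-positive replicate 1 (2.02, adjusted p = 0.00145), and the day 5 call was kept whichever of its 6 libraries was left out.

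Dlx5, a homeodomain gene of the anterior border and later of ventral forebrain neurons, was low throughout. It climbed from 1.38, 7.52 and 0.955 normalized counts on day 0 to 18.1, 14.5 and 19.6 on day 3. On day 4 the GFP-negative libraries held 34.5, 52.5 and 45.7 and the GFP-positive ones 5.65, 5.90 and 5.96, so that no library overlapped with day 3 in either gate. The day 4 difference of 2.71 was called (SE 0.47, adjusted p = 0.000257), and it was not called when any of 5 of its 6 libraries was left out, at 2.57 to 2.72. With quantile normalization it was not called either. On day 5 the values were 46.8, 47.0 and 21.9 against 11.8, 13.8 and 6.27 (1.75, SE 0.47, adjusted p = 0.0122). Dlx3, a homeodomain gene of epidermis and placenta, held 18.3, 25.2 and 48.1 normalized counts in day 4 GFP-negative cells and 14.8, 19.2 and 18.9 in GFP-positive cells. These ranges overlapped (0.65, SE 0.42, adjusted p = 0.369). On day 5 Dlx3 was at 95.2, 51.3 and 51.0 against 29.1, 43.3 and 17.2 (1.14, SE 0.42, adjusted p = 0.0732), and the highest day 5 GFP-negative library was within the range of day 0 (61.4, 101 and 58.6).

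Gata3, the zinc-finger factor of non-neural ectoderm and trophoblast, was also low. It fell from 62.1, 116 and 48.3 normalized counts on day 0 to 13.1, 30.0 and 18.1 on day 3 (-1.82, SE 0.38, adjusted p = 0.000571). Its day 4 values of 34.0, 65.5 and 43.4 in GFP-negative and 39.6, 39.9 and 28.8 in GFP-positive cells overlapped (0.35, SE 0.38, adjusted p = 0.646). On day 5 they were 92.4, 74.4 and 79.2 against 30.5, 47.4 and 36.9 and no longer overlapped, with a difference of 1.10 that was not called (SE 0.38, adjusted p = 0.0571). Annotated exons of Gata3 and of Tfap2a overlap those of antisense transcripts, and whether the counting used strand is not stated. Exons of Gata3 also share 77 bases with 9230102O04Rik, a protein-coding gene on the same strand. The 6 entries overlapping in span, among them 4930412O13Rik with 0 shared exon bases, held at most 12.8 normalized counts in any library.

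The crest genes Sox10 and Snai2 were the 2 members called higher in GFP-positive cells from day 3 to day 4. Sox10, the SOX factor of migrating crest and glia, was at 56.2, 26.2 and 40.8 normalized counts on day 3. It reached 219, 300 and 317 in day 4 GFP-negative cells and 163, 179 and 181 in GFP-positive cells, and both rises were called (2.78 and 2.12, SE 0.40, adjusted p = 3.21e-05 and 0.000202). The call in GFP-positive cells was lost when any of 3 of its 6 libraries was left out (adjusted p up to 0.00237). On day 5 the gates parted, with 573, 420 and 329 in GFP-negative and 77.3, 81.6 and 51.6 in GFP-positive cells, a 6.28-fold difference (2.62, SE 0.40, adjusted p = 4.57e-05) after 1.60-fold on day 4 (0.66, SE 0.40, adjusted p = 0.332). The 3 GFP-positive libraries of day 5 lay below those of day 4 (-1.33, SE 0.40, adjusted p = 0.0369, not called). The test of the change in the gate difference itself gave 1.97 (SE 0.56, adjusted p = 0.109). Sox10 was thus called between the gates on day 5 and not on day 4, and the difference between those days did not pass the test.

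Snai2, a zinc-finger repressor of epithelial genes in premigratory crest, was at 12.2, 13.6 and 21.8 normalized counts on day 3. It held 24.7, 40.5 and 51.8 in day 4 GFP-negative cells and 43.2, 49.4 and 62.7 in GFP-positive cells. The change was called in the GFP-positive gate (1.67, SE 0.34, adjusted p = 0.000511), and in the GFP-negative gate it was 1.23 (SE 0.34, adjusted p = 0.0147). A further rise to 143, 257 and 139 in day 5 GFP-negative cells was called (2.18, SE 0.34, adjusted p = 0.000209). GFP-positive cells reached 94.8, 130 and 134 on day 5 (1.19, SE 0.34, adjusted p = 0.0292, not called). The gate difference of Snai2 was -0.45 on day 4 and 0.54 on day 5 (SE 0.34, adjusted p = 0.477 and 0.359), so it was the only member of the 10 with a lower mean in GFP-negative cells on day 4. The call from day 4 to day 5 was lost when any of 3 of its 6 libraries was left out, and that from day 3 to day 4 when any of 5 of 6 was.

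**Figure D3:**
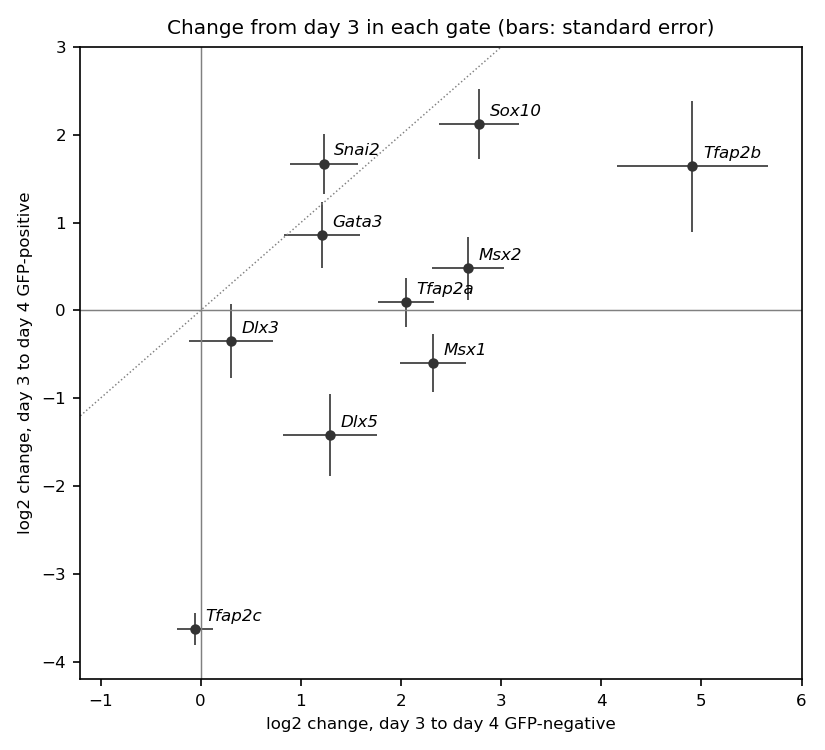
The log2 change of each regulator from day 3 to day 4 in GFP-negative cells (horizontal axis) and in GFP-positive cells (vertical axis), with SE bars and a dotted line of equal change. Both axes share the day 3 libraries, whose cells were not gated on GFP. Tfap2c lies at -0.06 and -3.63, Tfap2b, Msx1, Msx2 and Tfap2a lie to the right at 2.05 or more, and Sox10 and Snai2 lie near the dotted line.

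Seen from day 3, whose cells were not gated on GFP, 5 of the 10 regulators were called higher in day 4 GFP-negative cells. They were Tfap2a, Tfap2b, Msx1, Msx2 and Sox10, against 2.00% of all genes. In GFP-positive cells Sox10 and Snai2 were called higher, against 3.33%, and Tfap2c was called lower, against 7.36%. From day 4 to day 5 the only calls were Snai2 in GFP-negative cells, against 0.762% of genes called higher, and none in GFP-positive cells, against 1.49% called in either direction. In the latter comparison 4 regulators were higher and 1 lower at an unadjusted limma p under 0.05, against 10.0% and 10.3% of all genes. No regulator was called by limma for a change of the gate difference between the days, where 0.109% of all genes were called. At an unadjusted p under 0.05, 3 of the 10 differed (Sox10, Tfap2c and Msx1), against 9.40% of all genes. Tfap2c came nearest to the threshold (-1.14, SE 0.25, adjusted p = 0.0241), with an excess of 11.8-fold on day 4 and 5.42-fold on day 5.

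Before the sort, from day 0 to day 3, Dlx5 and Msx1 were called higher, against 5.91% of all genes, and Tfap2c, Gata3 and Snai2 lower, against 6.12%. The change of Dlx3 was -1.62 (SE 0.42, adjusted p = 0.0036, not called). Without replicate 1 of day 0, the library that stood apart, 3 calls were left (Msx1 higher, Tfap2c and Gata3 lower). The call of Gata3 was lost without any of 3 of the 6 libraries compared, that of Dlx5 without any of 4 and that of Snai2 without any of 5, whereas Msx1 and Tfap2c were called whichever was left out. Tfap2a, Msx2 and Sox10 overlapped between these days. Tfap2b held 2.92 and 2.08 normalized counts in the other 2 libraries of day 0.

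The levels of the 10 genes were compared per kilobase of annotated exon. In day 5 GFP-negative cells the mean was 448 normalized counts per kilobase for Msx1, 231 for Msx2, 144 for Sox10, 137 for Tfap2c, 88.9 for Snai2, 61.1 for Tfap2a and 59.4 for Tfap2b. Dlx3 (25.3), Gata3 (20.6) and Dlx5 (17.1) formed the low end. Among all 20801 tested genes with a length, Msx1 stood at the 77.3 percentile of such levels in this gate and Dlx5 at the 28.8 percentile. In day 4 GFP-positive cells the same scale gave 57.1 for Sox10, 56.3 for Msx1 and 2.21 for Tfap2b.

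The regulators varied together across the libraries of a gate, and the same replicate numbers were low in both gates. Replicate 1 was the lowest of the 3 for 9 of the 10 genes in day 4 GFP-negative cells and for 8 in GFP-positive cells, and replicate 3 the lowest for 9 and 7 of the 10 in the gates of day 5. The share of all tested genes that were lowest in these replicates is not given here. Their summed level was 2136, 3464 and 4488 normalized counts in day 4 GFP-negative cells and 583, 783 and 805 in GFP-positive cells. On day 5 it was 4592, 4767 and 3033 against 968, 1273 and 939. The study's methods describe both gates as sorted from the samples of a day, but the labels do not say that a number marks 1 sample. With the replicate number as a block within each day, 5 regulators were called between the day 4 gates and 4 between the day 5 gates. With 1 block per number over all days the day 5 call of Msx1 was lost (adjusted p = 0.00114). Trophoblast markers were lowest in the same libraries, at 3733, 5769 and 6980 on day 4 and 5075, 3897 and 2059 on day 5 in GFP-negative cells. So were mesoderm markers, at 3130, 5386 and 4938 on day 4 and 2831, 2870 and 2221 on day 5. The neural crest list was lowest there too, at 6997, 8474 and 7839 on day 4 and 10444, 11173 and 9973 on day 5. The surface ectoderm list was lowest in the same library on day 4 (8445, 8620 and 12120) and not on day 5 (12956, 8263 and 9279). Naive pluripotency markers were highest in day 4 replicate 1 (15653, against 13336 and 14786) and lowest in day 5 replicate 3 (5918, against 7260 and 6348). The part of cell composition in the members' spread was not tested. Without day 4 GFP-negative replicate 1, 5 regulators were called between the day 4 gates, and without day 5 GFP-negative replicate 3, 5 between the day 5 gates.

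Genes of the same tissues, from lists that include no member, were read beside them. Of 13 tested surface ectoderm genes, 3 were called higher in day 4 GFP-negative cells and 4 on day 5, with none lower, also at an unadjusted p under 0.05, and with median log2-fold-changes of 1.18 and 1.47. They were Cdh3 (P-cadherin), Wnt6, an ectodermal Wnt ligand, Grhl2, a regulator of epithelial junctions, and on day 5 Krt19, a simple-epithelial keratin. Grhl2 and Cdh3 were higher still before the sort. Grhl2 was at 2096 ± 59.5 normalized counts on day 3 (SD, n = 3), at 595 ± 106 and 312 ± 47.1 in GFP-negative cells of days 4 and 5, and at 123 ± 29.6 and 47.8 ± 22.8 in GFP-positive cells. The defining genes of stratified epidermis were at or near 0. Krt5 was at 0 in all 6 day 4 libraries and at most at 4.81 on day 5, and in the sorted libraries Krt14 was at most at 2.85 and Trp63 at most at 10.8. The summed level of the list was 8263 to 12956 in day 5 GFP-negative and 3447 to 3605 in GFP-positive libraries, after 10997 to 17659 in the libraries of days 0 to 3. Most of the day 5 GFP-negative sum was Krt8 (a mean of 3880) and Krt18 (3957), keratins of simple epithelia. Neither was called between the gates, although Krt8 passed the fold limit on day 5 (1.81, SE 0.37, adjusted p = 0.00114, 3880 ± 1110 against 1074 ± 26.9).

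Of 8 tested placode genes, Foxi3, a forkhead gene of the preplacodal region, was called higher in GFP-negative cells on both days (3.65 and 2.78). The level of Foxi3 was 679 ± 64.4 on day 3 and 182 ± 25.4 and then 40.9 ± 12.4 in that gate. Eya2, a transcriptional cofactor of placodes and eye, was lower in GFP-negative cells on day 5 (-1.63, SE 0.31, adjusted p = 0.000658). Foxi1 was at 0 in all but 1 of the sorted libraries.

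Of 17 neural crest genes, 5 were called higher and 1 lower in GFP-negative cells on day 4, and 10 higher and none lower on day 5, with medians of 0.84 and 2.35. At an unadjusted p under 0.05, 10 and then 13 were higher and 2 lower on each day. Among the latter on day 5 was Sox8, a relative of Sox10 named after its values were seen, at 46.1 ± 29.2 against 97.5 ± 13.1 (-1.24, SE 0.43, adjusted p = 0.0525, not called). Pax3, a paired-box gene of the dorsal neural tube and crest, was at 31.4 ± 3.48 on day 3, rose to 465 ± 88.7 by day 4 and was at 716 ± 103 by day 5 in GFP-negative cells (SD, n = 3), with 133 ± 30.9 and 70.5 ± 29.4 in GFP-positive cells. Ets1 (3.32 and 2.85) and Foxd3 (3.98 and 3.85) were called on both days, and Foxd3, also a gene of pluripotent cells, was at 2510 ± 165 on day 3 and 149 ± 34.8 in day 5 GFP-negative cells. Cdh6 was lower in GFP-negative cells on day 4 (-1.84, SE 0.24, adjusted p = 1.03e-05). Sox9, a crest SOX factor that is also expressed in neural progenitors, did not follow Sox10: it was at 1427 ± 158 in GFP-negative and 1500 ± 384 in GFP-positive cells on day 5 (-0.04, SE 0.25, adjusted p = 0.948).

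**Figure D4:**
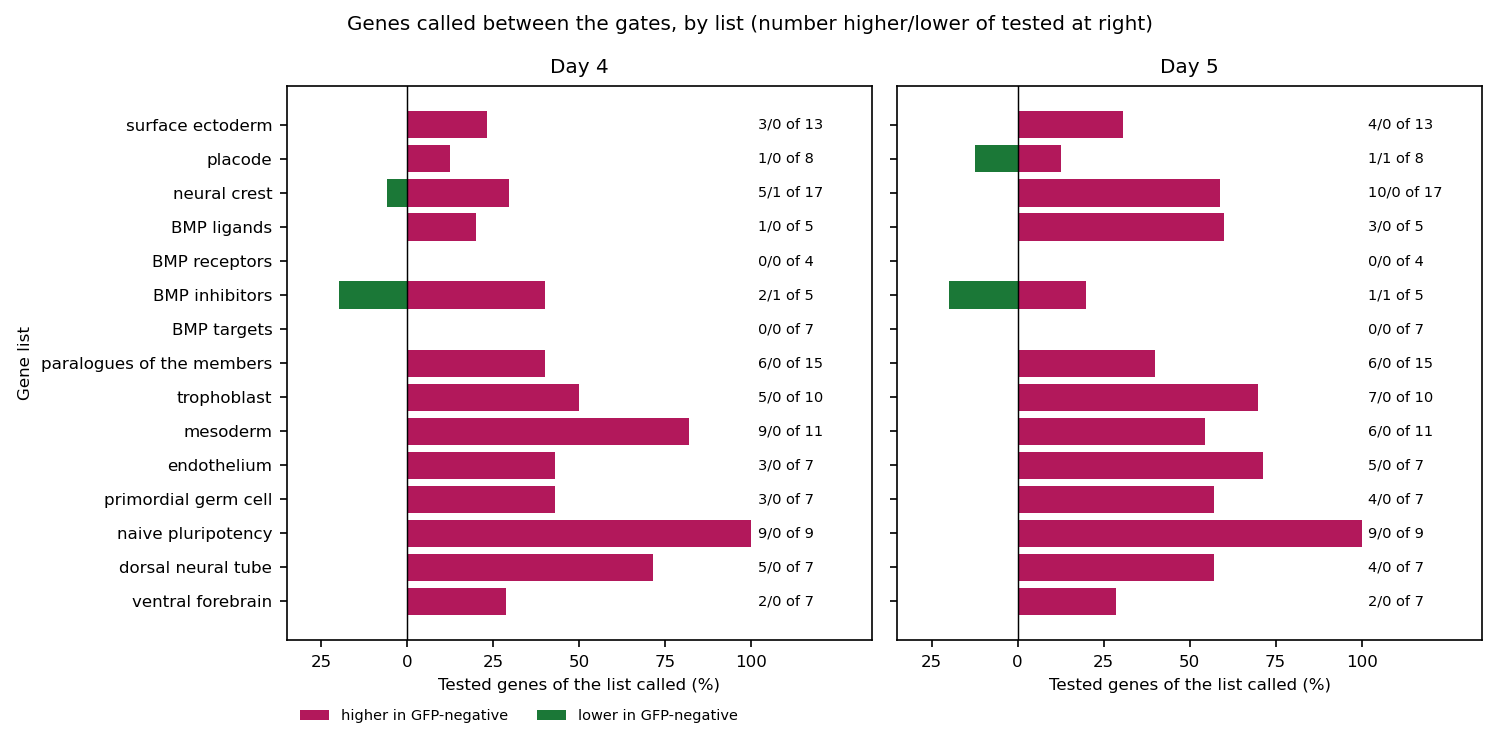
The share of the tested genes of each list (horizontal axis, percent) that was called higher (right of 0) or lower (left of 0) in GFP-negative cells on day 4 and day 5, with the numbers at the right of each panel. All 9 naive pluripotency genes were called higher on both days, 10 of 17 neural crest genes on day 5, and no BMP receptor or target gene on either day.

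The BMP pathway was read by role. Among 5 ligands, Bmp2 was called higher in GFP-negative cells on both days (2.90 and 3.25) and Bmp5 and Bmp6 on day 5 (3.01 and 2.64). At an unadjusted p under 0.05, all 5 ligands were higher on day 4, and 3 were higher and 2 lower on day 5. Bmp7, named after its values were seen, was at 2689 ± 98.4 in GFP-negative and 3695 ± 145 in GFP-positive cells on day 5 (-0.46, SE 0.14, adjusted p = 0.0253, not called). Bmp4 was at 632 ± 148 in GFP-negative and 264 ± 45.8 in GFP-positive cells on day 4 (SD, n = 3), a difference of 1.24 that passed the adjusted p and not the fold limit (SE 0.20, adjusted p = 0.000123). Bmp4 was at 1082 ± 350 in GFP-negative and 1428 ± 126 in GFP-positive cells on day 5 (-0.45, SE 0.20, adjusted p = 0.153), and the change between the days was -1.70 (SE 0.29, adjusted p = 0.00306, not called). None of the 4 receptors and none of the 7 target genes (Id1 to Id4, Smad6, Smad7 and Bambi) was called by limma on either day. At an unadjusted p under 0.05, 1 and then 2 receptors were lower in GFP-negative cells, and 2 and then 3 target genes were higher, with 1 lower on day 4. Among 5 secreted inhibitors, Cer1 was called higher on both days (3.78 and 3.23) and Fst on day 4 (2.60), while Grem1 was called lower on both (-2.27 and -2.49).

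Of 15 tested paralogues of the 10 genes, 6 were called higher in GFP-negative cells on each day and none lower. Gata4 (4.12 and 3.88) and Gata6 (3.90 and 4.26), GATA factors of endoderm and heart mesoderm, stood at 1329 ± 52.3 and 722 ± 64.7 normalized counts in day 5 GFP-negative cells, where Gata3 was at 82.0 ± 9.36. Msx3, an Msx gene of the dorsal neural tube, was at 118 ± 42.6 on day 4 and 429 ± 49.2 on day 5 in that gate and was called on both days (3.14 and 3.94). Snai1 (2.68 and 3.13) was at 431 ± 55.3 there, and Snai2 at 180 ± 66.8. Dlx6, the neighbour of Dlx5, was called on both days (2.78 and 2.67).

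Markers of other cell types that also express members of the set were higher in the GFP-negative gate too. All 9 naive pluripotency genes were called on both days, with medians of 3.02 and 3.46, among them Nanog (3.96 and 3.93) and Pou5f1 (3.19 and 4.03). Their summed level was 13336 to 15653 and 5918 to 7260 in GFP-negative libraries of days 4 and 5, and 1344 to 2234 and 601 to 785 in GFP-positive ones. Of 7 germ cell genes, 3 and then 4 were called, with Dppa3 (4.92 and 4.04), Prdm14 (3.95 and 3.41) and Prdm1 (4.19 on day 5) among them, and Nanos3 was at a mean of 10.6 or less in the sorted groups, after 122 on day 0.

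Of 10 tested trophoblast genes, 5 and then 7 were called, led by Hand1 (5.54 on day 5), Cdx2 (5.39) and Eomes (4.23 on day 4), which mesoderm also uses. Less shared with mesoderm, Plac1 (4.21 and 2.74) and Krt7 (2.22 and 3.08) were called on both days and Esx1 (3.43) on day 5. Ascl2 was also called on both days, at 52.0 ± 15.1 against 11.2 ± 5.61 normalized counts on day 4 and 57.5 ± 9.51 against 16.2 ± 1.77 on day 5 (SD, n = 3). Krt7, Ascl2 and Esx1 were named after their values were seen. The placental hormone gene Prl3d1 was at 0 in all sorted libraries and Gcm1 at a mean of 6.49 or less. Of 11 mesoderm genes, 9 and then 6 were called, including Tbxt (3.75 and 3.95), Mixl1 (4.54 and 4.22) and Hand2 (4.50 and 5.62). Of 7 endothelial genes, 3 and then 5 were called, with Cdh5 at 4.38 and Tie1 at 4.01 on day 5.

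Of 7 dorsal neural tube genes, 5 were called on day 4 and 4 on day 5, and their summed level was 2184 to 2751 and 4885 to 5733 in GFP-negative libraries against 281 to 401 and 547 to 731 in GFP-positive ones. Wnt1, the roof plate and midbrain ligand, was at 629 ± 169 and then 2928 ± 329 in GFP-negative cells, and at 46.4 ± 22.3 and 326 ± 53.1 in GFP-positive cells. Its gate difference was called on day 4 (3.83) and not on day 5 (3.17, SE 0.65, adjusted p = 0.00119). In GFP-negative cells Wnt3a was at 251 ± 73.3 and 390 ± 34.8, and Lmx1a at 162 ± 22.5 and 360 ± 18.8. Of 7 ventral forebrain genes, Gad1 (4.83 and 3.88) and Dlx6 were called on both days, and Nkx2-1 was at a mean of 11.1 in day 5 GFP-negative cells. The part of any of these cell types in the members' values was not tested.

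For the 6 regulators called between the gates, the 3 genes with the highest Pearson's r over the 8 group means were taken from 16052 genes, as a description in which all points share the same 24 libraries. Tfap2a was most like Tent5a (0.995), Msx2 (0.974) and Prdm6 (0.972), and Msx2 most like the Wnt ligand Wnt10b (0.995), Tgfb2 (0.983) and Wnt3a (0.981). Sox10 was most like Bsx (0.985), B130046B21Rik (0.974) and Pax3 (0.974). Msx1 followed F10 (0.937), Fjx1 (0.932) and the Wnt target Axin2 (0.929), and Dlx5 followed Tgfbr3 (0.973), Tmem159 (0.955) and Ston1 (0.946). Tfap2c was most like Pmepa1 (0.993), Sp110 (0.992) and the naive pluripotency gene Tbx3 (0.985). Among the members themselves Tfap2a and Msx2 had an r of 0.97 and Dlx5 and Msx1 of 0.94, whereas Tfap2c had its highest r with Dlx3 (0.73) and lay between -0.37 and 0.21 with the other 8.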

How the data were processed

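RNA was measured by polyA RNA-seq in 24 libraries grouped by their sample labels. The authors quantified reads with kallisto 0.43.1 on mouse Ensembl transcripts (mm10) and deposited a signal per gene, kallisto estimates divided by DESeq2 normalization factors. DESeq2's version and the strandedness are not given in the sources used here. The table's 9 logical columns of the authors' own calls were not used. Of low values, 45.6% to 76.8% per library were within 0.1 of whole reads, so no count model was run; the estimated depth was 37200000 to 54400000 reads.

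Values were transformed as log2(value + 1), with 1 as the pseudocount, filtered (at least 10 in at least 3 libraries) and fitted with limma 3.58.1 in R 4.3.3 in 1 trended model of 8 groups, with Benjamini-Hochberg adjustment per comparison. The code was tested on simulated data. The regulators and all gene lists were chosen with earlier results of these data known. Named were all 10 regulators, up to 4 called genes per list with the largest change, defining markers near 0 and the 3 likest genes. Same-numbered replicates were not treated as paired. Pseudocount, filter, scaling, fitted groups, thresholds, replicate block (also within each of days 4 and 5, chosen after seeing the data), promoter window and left-out libraries were varied. The values of 1 gene counted in a list are not reported here.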

Additional observations from a re-analysis of the deposited data

How the results depend on the processing

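None of the regulators' log2 changes recomputed changed sign; the genes of the lists, uncalled time steps and single changes of the gate difference were not varied. With only the groups compared in the fit, the number of regulators called became 2 on day 4 between the gates, 3 from day 3 to day 4 GFP-negative cells, 0 from day 4 to day 5 in GFP-negative cells and 1 from day 0 to day 3. With an adjusted p under 0.05 and a log2 change above 1, 7 were called between the day 5 gates, 1 for the change of the gate difference and 4 from day 4 to day 5 in GFP-positive cells. Without a filter, and with quantile normalization, 3 were called from day 0 to day 3, 2 higher and 1 lower in place of 2 higher and 3 lower, as without day 0 replicate 2. Quantile normalization also lowered the number of all genes called higher in GFP-negative cells, from 763 to 563 on day 4 and from 968 to 569 on day 5. With it, 4 regulators were called between the gates on each day. The causes were not tested. Leaving out each library in turn gave 3 to 6 calls between the day 4 gates, the 3 arising without GFP-negative replicate 3 and without GFP-positive replicate 1, 1 to 3 from day 3 to day 4 GFP-positive cells (none higher and 1 lower without day 3 replicate 2 or GFP-positive replicate 2 or 3), 0 to 1 in either gate from day 4 to day 5, and 2 to 5 from day 0 to day 3. Between the day 5 gates it gave 3 to 5. Tfap2a, Tfap2c and Msx1 on day 4 and Tfap2c, Msx2 and Sox10 on day 5 kept their gate calls whichever of the 6 libraries compared was left out. The calls of Tfap2a, Msx1 and Msx2 between the day 4 gates were lost when only these groups were fitted. Over all genes tested, replicates with the same number did not deviate together (r between the gates -0.11 to 0.15), although for the 10 regulators the same numbers were lowest in both gates. The replicate block gave 5 calls on day 4 and 3 on day 5, where that of Msx1 was not made, and a block within each day, chosen after seeing the data, gave 5 and 4. Of 18 pairs of a regulator and a like gene, 9 were also among the 3 likest over 24 libraries, at r of 0.702 to 0.97 for all pairs. In the 250 bases before the start alone, 11.3% of promoters held the homeodomain core and 13.7% the AP-2 sequence. Depth limits Tfap2b and Dlx5, whose lowest groups held a few reads.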
